A study of Mus musculus with 4 samples.

Results

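The Cdk inhibitors, the pocket proteins and 3 further genes of cell cycle arrest were followed through muscle differentiation of C2C12 cells, a mouse line of skeletal myoblasts that can be driven out of the cell cycle, and into fused myotubes, by withdrawing serum. The set was a list of 10 genes: the inhibitors Cdkn1a, Cdkn1b, Cdkn2c and Cdkn2d, the pocket proteins Rb1, Rbl1 and Rbl2, and the growth arrest genes Ccng1, Ccng2 and Gadd45a. Assembled transcripts were named for 9 of them, out of 12912 genes named in all. No assembled transcript carried the name Cdkn2d in any library, so this gene has no value here. Polyadenylated RNA was sequenced as paired ends from cells growing exponentially in high serum (-24 h, called growth here) and from cells taken 60, 120 and 168 h after they reached confluence and were moved to low serum. The labels give the strain as C57BL/6 for all 4 libraries and name no genetic change and no added agent. There was 1 library for each time point and no replicate.

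Cyclin-dependent kinases drive a cell from G1 into S phase by phosphorylating the pocket proteins, which otherwise hold E2F factors and silence their target genes. CIP/KIP inhibitors (Cdkn1a, Cdkn1b, Cdkn1c) bind cyclin and kinase together, and INK4 inhibitors (Cdkn2a to Cdkn2d) bind Cdk4 and Cdk6 and keep the D-type cyclins away. In myoblasts this brake is set as the cells commit to differentiation, and the arrest of myotubes is lasting, with Cdkn1a and Rb1 known to help maintain it.

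Levels are in FPKM (the fragments of a transcript divided by its length in kilobases and by the size of the library), and ± gives the deposited confidence limit as a distance from the value. The limit covers counting error and the sharing of fragments among transcripts, not the spread between cultures. The words rose and fell are kept for differences of 2-fold or more between log2(FPKM + 1) values, with intervals apart and a level of 1 FPKM or more in the higher library. Log2 ratios are on the FPKM + 1 scale, which understates the change of low genes. A gene's value is the FPKM of all its assembled transcripts added up. That sum is inflated for a gene assembled in several pieces, so 2 other measures are set beside it where they differ. One divides a gene's fragments by the union of its exons over all 4 libraries, which counts an unassembled stretch as 0, and the other is the median FPKM of the transcripts that pass through each of its introns. Each difference is between single libraries and has neither a replicate check nor a p-value, and the comparisons with growth share the growth library. In RNA from whole cultures, fewer cells that express a gene and less RNA in each cell cannot be told apart.

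The libraries held between 24488681 (120 h) and 48228886 (60 h) fragments. All 8 skeletal muscle markers examined were assembled in each library, and their summed level went from 740.8 FPKM in growth to 8591 at 60 h, 12235 at 120 h and 11719 at 168 h. Acta1 made up most of the later sums (18.4 FPKM in growth, 5150 at 60 h). Not all 8 went up: Myf5 and Ttn stood at 13.6 and 37.1 FPKM in growth and at 9.41 and 28.8 at 60 h. Myod1 stood at 193.3 FPKM in growth and 86.1 at 168 h. Summed markers of endothelium (3 genes, 0 to 0.329 FPKM, Pecam1 and Kdr at 0) and fat cells (3 genes, 0 to 0.750, Adipoq and Plin1 at 0) stayed near 0. Those of leukocytes (3 genes, sums of 1.14 to 4.83 FPKM, Ptprc at 0) were low but not constant. Of these, Cd68 stood at 0.308 ± 0.435 FPKM in growth and at 4.15 ± 1.51, 4.83 ± 1.72 and 4.41 ± 0.529 later. The summed smooth muscle markers (3 genes, Myh11 at 0) stood at 743.6 FPKM in growth and at 57.8, 26.6 and 11.6 later, and those of osteoblasts (4 genes, Bglap and Alpl at 0) between 4.62 and 23.4. The part of these shifts in the results below was not tested.

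Of the 9 genes with a value, 3 rose at 60 h against growth (Cdkn1a, Ccng2 and Gadd45a) and 1 fell (Rbl1), by the sum over transcripts. Among all 12582 genes tested in that comparison 11.1% rose and 15.5% fell. By both of the other measures Rb1 joined the genes that rose, which made 4 of 9, and none fell. By the union 11.1% of all genes rose and 10.2% fell, and through the introns 11.1% and 11.4%. The genes' median log2 ratio was 0.41 by the sum, beside -0.18 over all genes. These shares rest on 9 genes and are given as a description.

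**Figure D1:**
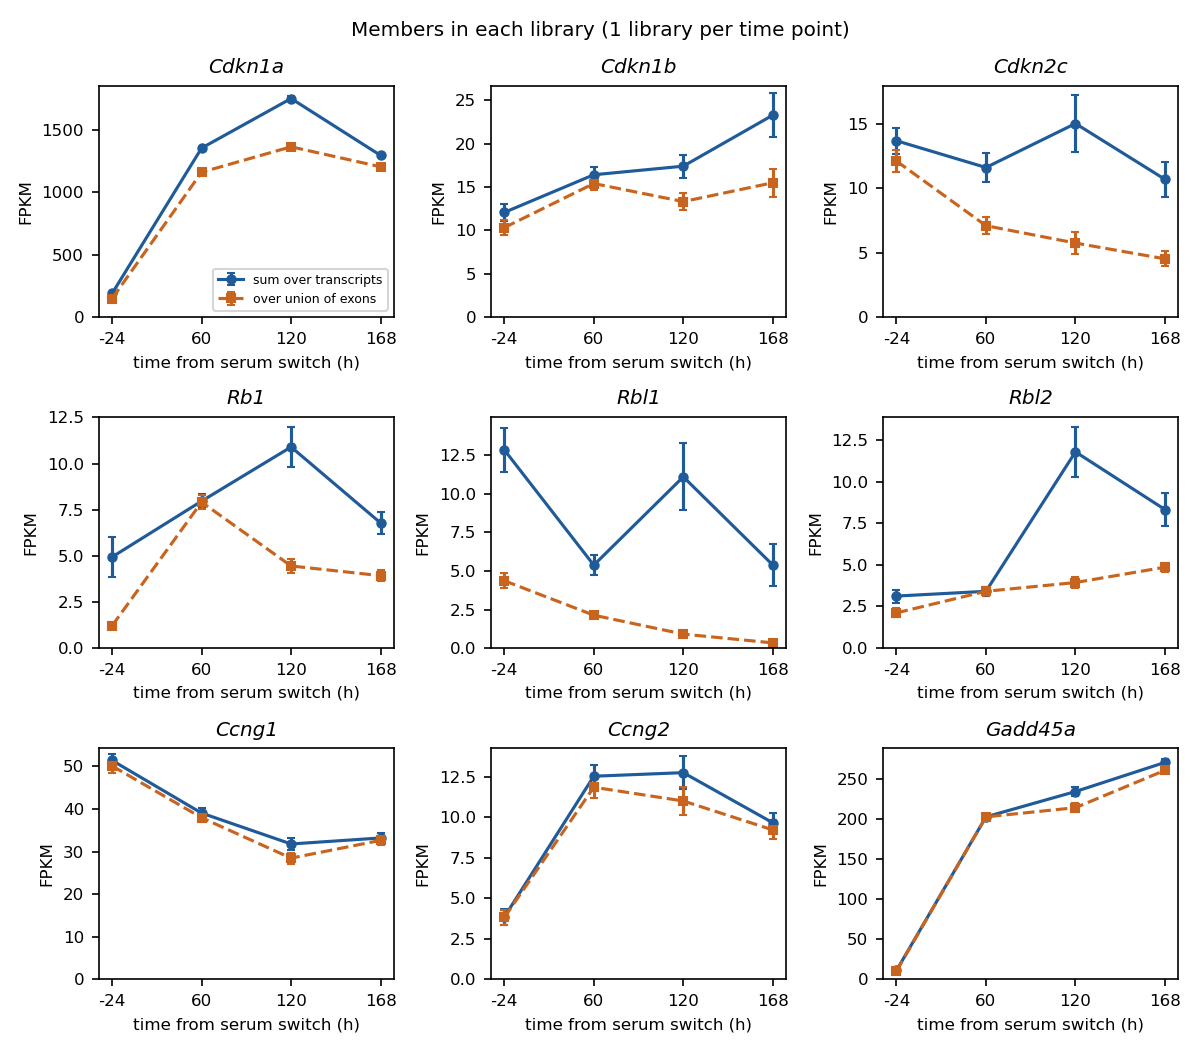
Level of each gene (y axis, FPKM, from 0) in the 4 libraries (x axis, hours from the switch to low serum, evenly spaced), as the sum over assembled transcripts (blue circles) and over the union of exons (orange squares), with bars to the deposited limits. Cdkn1a and Gadd45a step up between growth and 60 h by either measure, while the 2 measures part for Rb1, Rbl1, Rbl2 and Cdkn2c.

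Cdkn1a, which encodes p21, was the most abundant of these transcripts in every library. Its level was 189 ± 4.41 FPKM in growth, 1354 ± 10.3 at 60 h, 1751 ± 19.0 at 120 h and 1295 ± 7.24 at 168 h. Growth was the low library, and its interval lay far below those of the 3 later ones. Cdkn1a rose 7.16-fold by 60 h (log2 ratio 2.83, or 2.96 over the union of exons) and stood 6.85-fold above growth at 168 h (log2 ratio 2.77). Neither later step passed the rule, with log2 ratios of 0.37 at 120 h against 60 h and -0.43 at 168 h against 120 h. The step therefore lay between growth and the first library taken in low serum.

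Cdkn1a has a pair of known start sites, a distal and a proximal one, whose first exons are spliced to the same coding exons. In the coordinates of the files (no source used here names their genome build), the gene was assembled on the plus strand of chromosome 17 from 29227876 to 29237667 in growth. In growth a minor spliced transcript began at the distal first exon (10.99 ± 1.86 FPKM) beside the main one from the proximal exon (178 ± 4.002 FPKM), a share of 5.82 ± 0.933% of the spliced FPKM. At 60, 120 and 168 h all spliced Cdkn1a transcripts began at the proximal exon. An unspliced piece within the distal first exon was nevertheless assembled at 60 h (77.3 ± 7.60 FPKM, 5.71% of the gene's sum) and at 120 h (123 ± 15.1 FPKM, 7.02%), and none was at 168 h. Fragments at the distal exon were thus present in 3 of 4 libraries, and at 60 and 120 h they were not joined to the rest of the gene. The FPKM of a short unspliced piece and of a long spliced transcript are unlike measures, so levels at the distal exon were not compared. An annotated gene, AC167363.2, overlaps Cdkn1a on the opposite strand, and the libraries do not mark strand.

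The promoters of both start sites are shown because transcripts or pieces at both first exons were assembled in growth and at 60 and 120 h. They are RefSeq sequences of build GRCm38.p6, 250 bases before to 50 bases after each start, read 5′ to 3′ on the gene's strand (plus), at chr17:29090729-29091028 (distal) and chr17:29093519-29093818 (proximal). Capitals mark the E-box letters CANNTG, the core bound by MyoD, myogenin and other basic helix-loop-helix factors.
Cdkn1a distal: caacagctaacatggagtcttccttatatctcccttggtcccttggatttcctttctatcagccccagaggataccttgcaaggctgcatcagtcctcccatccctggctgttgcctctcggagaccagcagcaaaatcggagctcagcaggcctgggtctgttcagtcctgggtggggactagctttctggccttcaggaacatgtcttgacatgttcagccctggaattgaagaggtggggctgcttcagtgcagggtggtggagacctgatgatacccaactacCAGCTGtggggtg
Cdkn1a proximal: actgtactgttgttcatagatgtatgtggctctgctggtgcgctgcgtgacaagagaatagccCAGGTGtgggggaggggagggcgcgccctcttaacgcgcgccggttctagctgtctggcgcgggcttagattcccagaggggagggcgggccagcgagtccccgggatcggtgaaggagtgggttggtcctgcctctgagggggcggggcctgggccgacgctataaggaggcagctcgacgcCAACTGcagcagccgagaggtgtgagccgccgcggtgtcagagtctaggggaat
The distal promoter held 1 such match, CAGCTG, whose first base lies 37 bases after the start. The proximal promoter held CAGGTG at -187 and CAACTG at -4, and the GC box letters GGGCGG at -104 and -46. Of all 32851 promoters of this length in the table, 72.3% held CANNTG, 16.3% CAGCTG, 20.2% CAGGTG and 35.7% GGGCGG on either strand, so none of these matches is rare. The letters CAGCTG and CAGGTG are special cases of CANNTG.

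Cdkn1b, which encodes p27, changed far less. Its level was 12.06 ± 0.980 FPKM in growth, 16.4 ± 0.839 at 60 h, 17.4 ± 1.34 at 120 h and 23.3 ± 2.54 at 168 h. Growth was again lowest, with its interval below all 3 later ones, but no comparison passed the 2-fold rule (log2 ratio 0.41 at 60 h and 0.89 at 168 h against growth). At 168 h the gene was assembled as 2 transcripts that share their long first exon, of 14.05 ± 1.65 and 9.22 ± 1.93 FPKM. The 168 h value by the union measure was 15.5 ± 1.63 FPKM, next to 10.3 ± 0.838 in growth (log2 ratio 0.54). p27 is known to be set largely by protein turnover, through the Skp2 ubiquitin ligase and its cofactor Cks1b, which RNA levels do not show.

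Of 7 genes of p27 turnover with a value (of 8 listed), 2 fell and 1 rose at 60 h against growth (median log2 ratio -0.25), near the 15.5% and 11.1% of all genes. Skp2, the substrate receptor of that ligase, fell from 16.4 ± 0.846 to 3.27 ± 0.294 FPKM and stood at 4.91 ± 1.11 and 4.22 ± 0.790 at 120 and 168 h. Cks1b fell from 101.7 ± 4.67 to 29.6 ± 1.72 FPKM and reached 9.21 ± 1.22 at 168 h. Rnf123, a subunit of a cytoplasmic ligase for p27, rose by the sum from 15.6 ± 1.10 to 38.2 ± 1.55 FPKM (log2 ratio 1.24), but its log2 ratio over the union of exons was 0.97 and missed the rule.

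Cdkn1c, which encodes p57 and is the CIP/KIP gene outside the set, was highest at 60 h. It stood at 5.89 ± 2.05 FPKM in growth, 13.6 ± 1.86 at 60 h, 9.01 ± 2.29 at 120 h and 3.22 ± 0.849 at 168 h. It rose at 60 h against growth (log2 ratio 1.09) and fell at 168 h against 120 h (log2 ratio -1.25), and the intervals of growth and 168 h overlap. The rise at 60 h also held by the union (2.81) and through the introns (1.49), but these place the fall at 120 h against 60 h (-2.16 and -1.25) and not at 168 h against 120 h (-0.39 and -0.11). The INK4 genes Cdkn2a and Cdkn2b carried no name in any library and have no value here. Of the FPKM summed over Cdkn1a, Cdkn1b, Cdkn1c and Cdkn2c, Cdkn1a made up 85.7 ± 1.0% in growth and 97.0 ± 0.164%, 97.7 ± 0.191% and 97.2 ± 0.220% later.

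Cdkn2c, which encodes the INK4 inhibitor p18, kept a similar level of spliced RNA, while its assembled transcripts differed in their first exon. Summed over transcripts it stood at 13.71 ± 1.001 FPKM in growth, 11.6 ± 1.14 at 60 h, 15.0 ± 2.25 at 120 h and 10.7 ± 1.36 at 168 h, and no comparison passed the rule by this measure. In growth the only transcript assembled was a chain of 3 exons that began at the distal first exon (minus strand of chromosome 4, 109333594 to 109339357 in the files' coordinates). From 60 h on, a chain of 2 exons was assembled beside it. Its first exon ends at the same splice donor (109337622) as the second exon of the distal chain and reaches upstream into what is intron in that chain, and the long distal exon, with its donor at 109338214, is left out.

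The proximal chain of Cdkn2c was not assembled in growth and stood at 6.951 ± 0.9996 FPKM at 60 h, 8.36 ± 1.70 at 120 h and 6.76 ± 1.06 at 168 h. A chain that was not assembled in a library may still be present in its RNA, and start sites were not measured directly. The distal chain stood at 13.71 ± 1.001 FPKM in growth, 4.68 ± 0.551 at 60 h, 3.98 ± 1.27 at 120 h and 2.42 ± 0.742 at 168 h. The proximal chain therefore made up 59.8 ± 4.47%, 67.8 ± 8.26% and 73.6 ± 6.68% of the spliced FPKM at 60, 120 and 168 h, and the intervals of these 3 shares overlap between neighbouring libraries. The distal chain of growth was 2.93-fold that of 60 h and 5.66-fold that of 168 h. Through the intron that both chains share, the FPKM was 13.71 ± 1.001, 11.6 ± 1.14, 12.3 ± 2.12 and 9.19 ± 1.30, so growth exceeded 168 h only 1.49-fold.

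**Figure D2:**
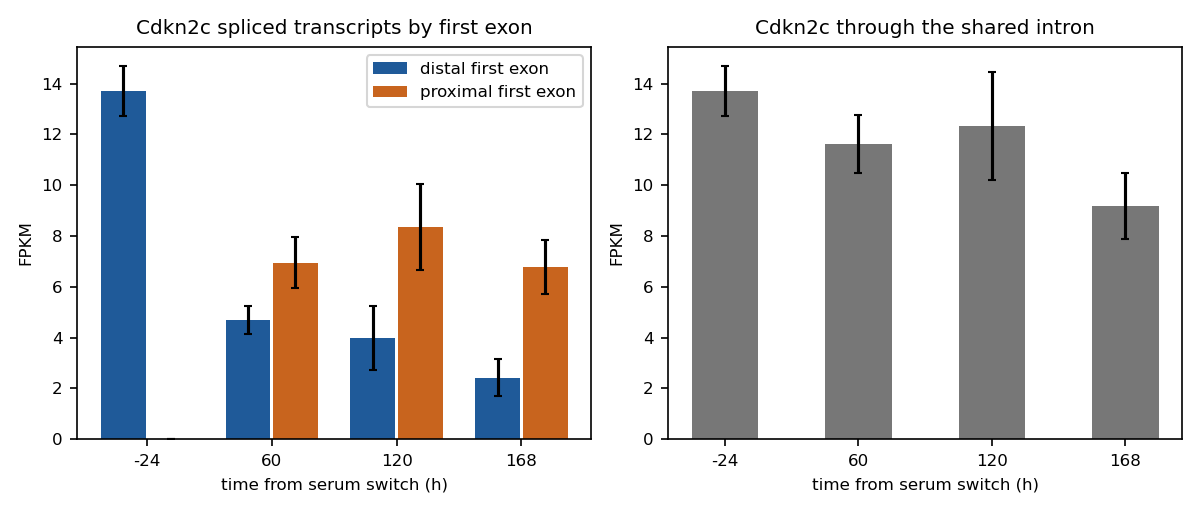
Cdkn2c in the 4 libraries (x axis, hours from the switch to low serum). Left, FPKM of spliced transcripts that begin at the distal (blue) and the proximal (orange) first exon; right, FPKM through the intron shared by both; bars run to the deposited limits. The distal chain drops from 13.7 FPKM in growth to 2.42 at 168 h while the proximal chain, absent from the growth assembly, stays between 6.76 and 8.36.

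In the annotation both Cdkn2c transcripts carry the same length of coding sequence, 504 bases, so the difference between the chains concerns the leader of the RNA. By measures that weigh the distal exon Cdkn2c fell at 168 h against growth: the log2 ratio was -1.25 over the union of exons, of which that exon is the largest piece, and -1.11 as the median over its 2 introns, 1 of them used by the distal chain alone. Unspliced pieces inside the distal exon were assembled at 120 h (2.72 ± 0.755 FPKM) and 168 h (1.52 ± 0.422 FPKM) and are counted in the sum.

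The promoters of the 2 Cdkn2c starts are shown because the chains assembled from them differed between growing and differentiating cells. They lie on the minus strand of build GRCm38.p6, at chr4:109666707-109667006 (distal) and chr4:109665323-109665622 (proximal), are taken from RefSeq and are read on the gene's strand, with capitals again marking CANNTG.
Cdkn2c distal: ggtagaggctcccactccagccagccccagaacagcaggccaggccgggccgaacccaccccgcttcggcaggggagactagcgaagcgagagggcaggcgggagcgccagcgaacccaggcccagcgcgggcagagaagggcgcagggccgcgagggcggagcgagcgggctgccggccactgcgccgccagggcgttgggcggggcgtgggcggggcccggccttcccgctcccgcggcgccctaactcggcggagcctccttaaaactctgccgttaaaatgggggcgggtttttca
Cdkn2c proximal: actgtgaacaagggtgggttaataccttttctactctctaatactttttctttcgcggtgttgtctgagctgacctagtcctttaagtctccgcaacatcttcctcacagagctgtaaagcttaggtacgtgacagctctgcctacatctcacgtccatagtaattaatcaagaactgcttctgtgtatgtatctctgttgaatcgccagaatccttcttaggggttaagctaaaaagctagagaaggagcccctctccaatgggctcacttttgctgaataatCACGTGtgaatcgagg
The distal promoter, rich in G and C, held 4 GC box matches (GGGCGG at -95, -51, -40 and 36) and no CANNTG. The proximal promoter held no GC box and 1 E-box, CACGTG at 34, with the letters CCAAT at 7, which 37.4% of all promoters hold. A match is a description of these letters and no measure of binding.

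The kinases and cyclins that the inhibitors bind mostly fell. Of 10 such genes 6 fell and 2 rose at 60 h against growth (median log2 ratio -1.52), and the same counts held at 168 h against growth (-1.84). Of all genes 15.5% fell and 11.1% rose at 60 h, and 18.5% and 15.5% at 168 h. Ccne1, which encodes the cyclin E that activates Cdk2, fell from 49.6 ± 1.91 FPKM in growth to 5.39 ± 0.486 at 60 h and stood at 4.39 ± 0.631 and 2.97 ± 0.381 later. Ccnd1, the cyclin D gene of growing cells, fell from 162.8 ± 2.44 to 26.1 ± 0.757 FPKM, with 44.3 ± 3.24 at 120 h and 15.2 ± 0.995 at 168 h. Over the union of exons Ccnd1 stood at 145.9, 23.1, 12.4 and 5.56 FPKM, lower in each library than in the one before. Cdk1, the mitotic kinase gene, fell from 187.8 ± 4.62 to 38.7 ± 1.62 FPKM and reached 6.70 ± 0.729 at 168 h. The 2 genes that rose were the other D-type cyclins. Ccnd3 (named after its values were seen, as is Ccnd2) rose from 54.3 ± 1.67 FPKM to 146.5 ± 2.52 at 60 h and stood at 261.9 ± 4.35 and 201.2 ± 3.88 later, and Ccnd2 rose from 3.35 ± 0.787 to 8.25 ± 0.506 FPKM. By the union Ccnd3 stood at 50.2, 130.3, 171.8 and 116.6 FPKM, so its level at 168 h lay below that at 60 h.

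Set against its target kinases, Cdkn1a RNA went from below their summed level to well above it. The FPKM of Cdkn1a divided by the summed FPKM of Cdk2, Cdk4 and Cdk6 was 0.686 in growth, 11.3 at 60 h, 15.6 at 120 h and 14.7 at 168 h. With union values the ratios were 0.606, 10.4, 16.9 and 18.4. Cdk4 made up most of the sum and fell from 239.8 ± 3.65 to 84.4 ± 1.70 FPKM at 60 h, while Cdk2 stood at 26.1 ± 1.77 and 26.9 ± 2.504. These are ratios of RNA per length and say nothing of protein.

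By the union measure the pocket protein genes exchanged places. Rbl1 (p107), the pocket protein of cycling cells and itself an E2F target, led in growth. Rb1 and Rbl2 (p130), the partner of E2F4 in resting cells, lay above it afterwards. Over the union of exons Rbl1 made up 56.7 ± 3.65% of the summed pocket protein FPKM in growth, 15.9 ± 1.28% at 60 h, 9.74 ± 1.74% at 120 h and 3.70 ± 0.832% at 168 h. The share of Rb1 was 15.8 ± 2.41% in growth and 58.8 ± 1.81%, 47.9 ± 2.97% and 43.0 ± 2.24% later. The share of Rbl2 was 27.5 ± 3.13%, 25.4 ± 1.62%, 42.4 ± 2.88% and 53.3 ± 2.23%. By the sum, too, Rbl1 led in growth and Rb1 at 60 h. At 120 h Rbl1 kept 32.8 ± 4.69%, beside 32.3 ± 3.33% for Rb1 and 34.9 ± 3.86% for Rbl2, so none led beyond its interval. At 168 h Rbl2 was highest, but its interval overlapped that of Rb1, and Rbl1 kept 26.3 ± 5.11%. Rbl1 had been assembled in 8 and 6 pieces at 120 and 168 h. The limits of the union shares do not cover unassembled stretches (Rb1 was 65.9% assembled in growth and Rbl1 32.6% at 168 h).

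**Figure D3:**
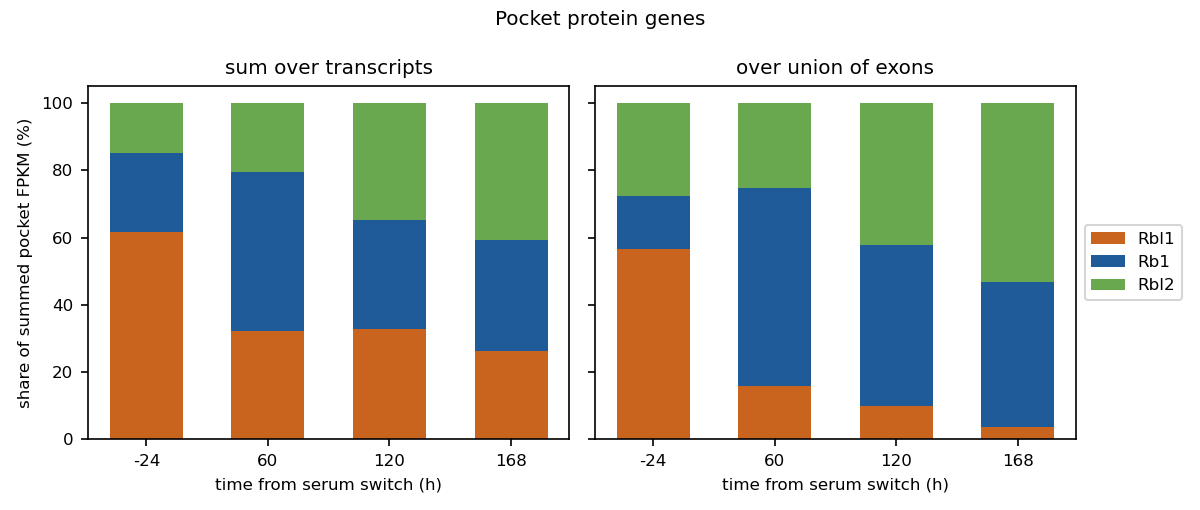
Share of each pocket protein gene in their summed FPKM (y axis, percent) in the 4 libraries (x axis, hours from the switch to low serum), by the sum over transcripts (left) and over the union of exons (right). Rbl1 (orange) holds 61.5% by the sum and 56.7% over the union in growth, and 26.3% and 3.70% at 168 h.

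Rbl1 fell, but how far depends on the measure. Over the union of exons it stood at 4.37 ± 0.484 FPKM in growth, 2.13 ± 0.186 at 60 h, 0.905 ± 0.170 at 120 h and 0.337 ± 0.0773 at 168 h, each interval below the one before. These values rest on 640, 529, 114 and 76 fragments, and the share of the union that was assembled was 95.6%, 91.4%, 65.5% and 32.6%. By the sum it stood at 12.85 ± 1.43, 5.38 ± 0.636, 11.1 ± 2.18 and 5.39 ± 1.36 FPKM. At 168 h against growth Rbl1 fell by all 3 measures (log2 ratio -1.12 by the sum, -2.0 over the union and -1.72 through the introns). At 60 h against growth it fell by the sum alone (-1.12), with -0.78 over the union and -0.92 through the introns. At 120 h against 60 h the measures differ in sign (0.92 by the sum, -0.72 by each of the other two), and neither value passed the rule.

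Rb1, which encodes the retinoblastoma protein, was sparsely assembled in growth. The union values were 1.21 ± 0.195 FPKM in growth, 7.91 ± 0.385 at 60 h, 4.45 ± 0.403 at 120 h and 3.92 ± 0.284 at 168 h, so that growth was lowest and 60 h highest, with both intervals apart from the rest. They rest on 155, 1711, 489 and 772 fragments. In growth 12 introns were assembled, in 3 pieces covering 65.9% of the union, against 26 introns in 1 transcript at 60 h (minus strand of chromosome 14, 73595321 to 73725440 in the files' coordinates). Rb1 rose at 60 h over the union (log2 ratio 2.01, 6.53-fold) and through the introns (1.38), and not by the sum (0.59), in which it stood at 4.94 ± 1.06, 7.97 ± 0.387, 10.9 ± 1.08 and 6.78 ± 0.610 FPKM. By the sum, then, 120 h was highest, with its interval above that of 60 h, the reverse of the union order. At 168 h against growth it rose over the union alone (1.15, next to 0.64 through the introns and 0.39 by the sum). The annotated genes Lpar6 and Rcbtb2 overlap Rb1 on the opposite strand and hold 10.4% of its 50-base words, so fragments there cannot be separated.

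Rbl2 climbed slowly. By that union measure it stood at 2.12 ± 0.267 FPKM in growth, 3.41 ± 0.253 at 60 h, 3.94 ± 0.335 at 120 h and 4.86 ± 0.278 at 168 h. Growth was lowest and 168 h highest, and only the intervals of 60 h and 120 h overlap. No comparison passed the rule by this measure (log2 ratio 0.91 at 168 h against growth). In growth, however, 67.7% of the union was assembled (9 introns, 346 fragments), against 100% at 60 h (21 introns). Through the introns growth and 60 h did not differ beyond their intervals (3.13 ± 0.394 and 3.41 ± 0.253 FPKM). By the sum, 3.13 ± 0.394, 3.41 ± 0.253, 11.8 ± 1.52 and 8.32 ± 1.01 FPKM, Rbl2 rose at 120 h against 60 h (1.54) and at 168 h against growth (1.18). The step at 120 h coincides with a gene broken into 3 pieces, and it was 0.16 over the union and 0.41 through the introns. Aktip and Gm45464 overlap Rbl2 on the opposite strand, with 13.4% of its 50-base words.

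**Figure D4:**
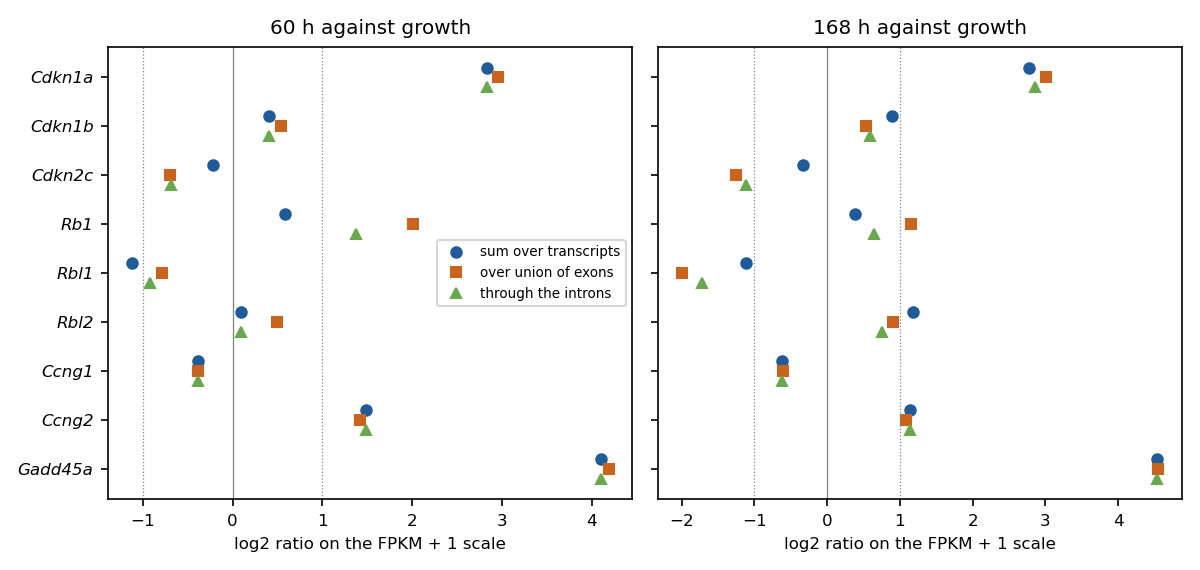
Log2 ratio (x axis, FPKM + 1 scale) of each gene at 60 h (left) and at 168 h (right) against growth, by the sum over transcripts (blue circles), over the union of exons (orange squares) and through the introns (green triangles); dotted lines mark 2-fold. The measures give nearly 1 value for Gadd45a, Ccng1 and Ccng2 and lie farthest apart for Rb1 at 60 h (0.59, 2.01 and 1.38).

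The E2F side was low once serum had been lowered. Of 22 E2F target genes, which encode replication proteins and enzymes of nucleotide synthesis, 19 fell and none rose at 60 h against growth (median log2 ratio -1.97), where 15.5% of all genes fell, and all 22 fell at 168 h (-2.91), where 18.5% of all 12579 genes fell. Rrm2, a subunit of ribonucleotide reductase, fell from 352.7 ± 6.06 to 47.1 ± 2.07 FPKM and stood at 50.1 ± 3.42 and 28.1 ± 2.70 later. Mcm5, a subunit of the MCM helicase that opens DNA for replication, fell from 161.5 ± 2.82 to 23.1 ± 0.835 FPKM and reached 7.46 ± 1.29 at 168 h. Fen1, the flap endonuclease of lagging-strand synthesis, fell from 68.0 ± 5.67 to 9.71 ± 1.65 FPKM and reached 6.47 ± 1.49.

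Among 17 of 18 listed E2F factors and partners of the DREAM complex with a value, 4 fell and 1 rose at 60 h (median log2 ratio -0.69), and 7 fell and none rose at 168 h (-0.75). Of all genes 15.5% fell and 11.1% rose at 60 h, and 18.5% and 15.5% at 168 h. Over the union 6 of the 17 fell and 1 rose at 60 h, beside 10.2% and 11.1% of all genes. Through the introns 4 fell and 1 rose, beside 11.4% and 11.1%. Mybl2, which joins the complex's core in cycling cells, fell from 46.5 ± 5.10 to 4.32 ± 0.541 FPKM and stood at 2.81 ± 1.25 and 0.650 ± 0.582 later. E2f1, an activator, fell from 30.6 ± 3.36 to 8.81 ± 1.55 FPKM, with 10.2 ± 0.785 and 9.22 ± 0.561 later. E2f7, an atypical repressor, fell from 10.6 ± 0.522 to 2.19 ± 0.184 FPKM at 60 h and stood at 10.6 ± 2.91 at 120 h and 3.19 ± 1.40 at 168 h. It rose at 120 h against 60 h by the sum (log2 ratio 1.86). No gene of this list rose at that step over the union or through the introns. The gene that rose at 60 h against growth was E2f2 (named after its values were seen), an activator that stood at 15.2 FPKM in growth and 38.9 at 60 h.

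Gadd45a, a stress-induced gene whose product binds the kinase MTK1 and the clamp PCNA, had the largest ratio of the 9 genes. Its level was 10.79 ± 1.17 FPKM in growth, 203.1 ± 3.79 at 60 h, 234.8 ± 5.97 at 120 h and 271.3 ± 4.67 at 168 h. Without rescaling, each library lay above the one before with intervals apart. Gadd45a rose 18.8-fold by 60 h (log2 ratio 4.11) and stood 25.1-fold above growth at 168 h (4.53), while each later step was small (0.21 in both). The step at 120 h against 60 h was 0.01 under median-ratio rescaling and -0.01 with libraries scaled to equal totals of FPKM. The measures gave nearly the same ratios, since a single spliced transcript of 4 exons was assembled in each library (minus strand of chromosome 6, 66985196 to 66987459 at 60 h). E230016M11Rik overlaps Gadd45a on the opposite strand and shares 22.8% of its 50-base words, and its fragments cannot be separated from those of Gadd45a.

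The Gadd45a promoter is shown as that of the gene with the largest ratio. It is the RefSeq sequence of chr6:67037358-67037657 (GRCm38.p6, minus strand), with CANNTG in capitals.
Gadd45a: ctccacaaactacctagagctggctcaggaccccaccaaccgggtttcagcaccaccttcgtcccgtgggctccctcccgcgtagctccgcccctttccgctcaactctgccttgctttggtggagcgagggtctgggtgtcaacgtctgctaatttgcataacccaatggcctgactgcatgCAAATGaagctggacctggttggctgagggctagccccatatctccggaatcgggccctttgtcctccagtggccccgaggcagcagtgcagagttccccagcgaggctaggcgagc
It held 1 E-box match, CAAATG at -67, the letters CCAAT at -86 and a GC box at -163. Promoters were found in the table for 9 of the 10 genes, Rb1 being the exception, and gave 11 sequences. CANNTG occurred in 5 of the 11 and GGGCGG in 8, beside 72.3% and 35.7% of all promoters. The letters TTTCCCGC and TTTGGCGC (E2F), GTAAACA (FoxO) and TATAAA occurred in none, beside 1.07%, 0.514%, 3.65% and 13.6% of all promoters, which says only that these letters are not in these windows.

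Ccng2, an unusual cyclin that is known to be high in resting cells and to be driven by FoxO factors, also rose. It stood at 3.83 ± 0.474 FPKM in growth, 12.5 ± 0.676 at 60 h, 12.75 ± 1.002 at 120 h and 9.65 ± 0.619 at 168 h. Growth was lowest and apart from the rest, and the 60 h and 120 h libraries did not differ beyond their intervals. The rise was 3.27-fold at 60 h (log2 ratio 1.49) and 2.52-fold at 168 h against growth (1.14). Ccng1, its relative and a known p53 target, did not follow. It stood at 51.4 ± 1.63 FPKM in growth, 39.0 ± 1.09 at 60 h, 31.8 ± 1.44 at 120 h and 33.2 ± 1.05 at 168 h, highest in growth with all 3 later intervals below it. No comparison of Ccng1 passed the 2-fold rule (log2 ratio -0.39 at 60 h and -0.62 at 168 h against growth).

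Cdkn1a, Ccng1 and Gadd45a are known targets of p53, and the other p53 genes were also counted. Of 22 with a value (of 23 listed), 4 rose and 3 fell at 60 h against growth (median log2 ratio 0.07) and 5 rose and 5 fell at 168 h (0.25). Among all genes 11.1% rose and 15.5% fell at 60 h (median -0.18), and 15.5% and 18.5% at 168 h (-0.11), so by the sum these counts lie near the background. At 60 h 6 of the 22 rose and 3 fell over the union, beside 11.1% and 10.2% of all genes. Through the introns 5 rose and 3 fell, beside 11.1% and 11.4%. At 168 h 4 rose and 3 fell by each of these measures. Trp53 itself (named after its values were seen) fell from 86.8 FPKM in growth to 42.4 at 60 h (log2 ratio -1.02, a call lost under median-ratio rescaling) and stood at 27.3 at 168 h. Ddit4, an inhibitor of mTORC1, rose from 47.4 ± 1.93 to 160.4 ± 2.69 FPKM at 60 h and stood at 121.8 ± 3.38 and 67.8 ± 1.87 later. Bbc3, a pro-apoptotic gene, rose from 4.45 ± 0.900 to 15.2 ± 1.63 FPKM, with 18.7 ± 2.43 and 15.6 ± 1.59 later. Sesn2, a stress-induced regulator of mTORC1, rose from 15.0 ± 0.769 to 45.2 ± 1.04 FPKM and stood at 33.5 ± 1.26 and 30.8 ± 0.902.

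Of the stress kinase genes around Gadd45a, 11 of 12 listed had a value, and at 60 h 2 rose while 3 fell (their median log2 ratio was -0.28), near the 11.1% and 15.5% of all genes. The 2 that rose encode stress-induced transcription factors. Atf3 rose from 3.64 ± 1.84 to 41.5 ± 1.35 FPKM and stood at 32.4 ± 1.68 and 27 ± 1.15 later. Ddit3 rose from 11.4 ± 1.77 to 87.2 ± 3.03 FPKM, stood at 74.8 ± 4.03 at 120 h and rose again to 181 ± 5.55 at 168 h. Gadd45gip1, whose product binds GADD45 proteins and is also a mitochondrial ribosomal protein, fell from 51.8 ± 2.08 to 6.98 ± 0.830 FPKM at 60 h and rose to 39.6 ± 1.98 at 120 h.

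Of the FoxO factors and their targets 5 of 12 rose while 1 fell at 60 h (their median log2 ratio was 0.56), where 11.1% of all genes rose and 15.5% fell, and 5 and 1 at 168 h (0.78), where 15.5% rose and 18.5% fell. Pink1, a mitochondrial kinase gene, rose from 7.70 ± 1.46 to 42.3 ± 1.19 FPKM and reached 108.6 ± 2.05 at 168 h. Txnip, which encodes a thioredoxin-binding protein that restrains glucose uptake, rose from 5.07 ± 2.13 to 26.6 ± 2.46 FPKM and reached 91.3 ± 4.96. Klf4, a transcription factor gene that itself activates Cdkn1a in other cells, rose from 6.59 ± 1.44 to 35.8 ± 1.03 FPKM and stood at 17.9 ± 1.03 and 15.9 ± 0.720 later.

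**Figure D5:**
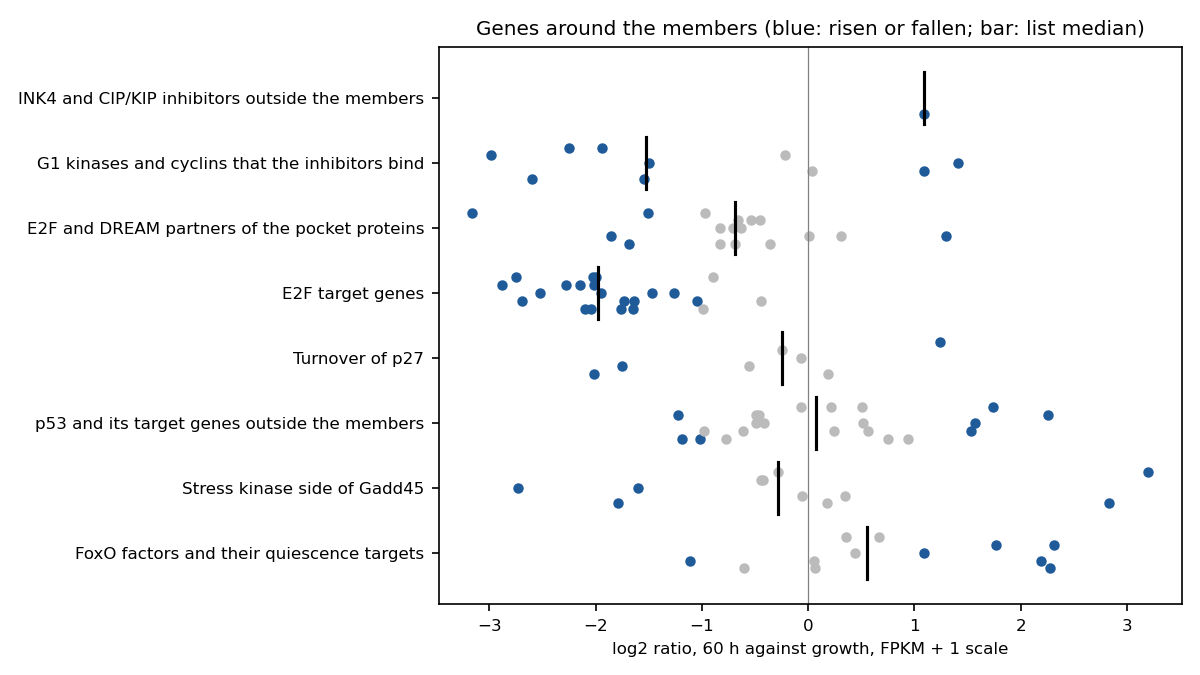
Log2 ratio at 60 h against growth (x axis, FPKM + 1 scale) of each gene in the 8 lists around the inhibitors and pocket proteins (rows); blue points rose or fell by the rule, grey points did not, and the vertical bar is the list's median. The E2F targets and the G1 kinases and cyclins lie mostly to the left (medians -1.97 and -1.52), and the median of the p53 list is 0.07.

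The steps after 60 h were compared next. At 120 h against 60 h only Rbl2 rose, by the sum alone, where 12.6% of all genes rose, and none fell (3.94% of all genes). At 168 h against 120 h none of the 9 genes rose or fell (4.20% and 10.2% of all genes). No gene rose or fell at either step by the union measure (2.14% and 4.55% of all genes at the first, 3.53% and 2.64% at the second), and none did through the introns (4.19% and 4.56%, then 4.36% and 4.30%). At 168 h against growth 4 of the 9 rose by the sum (Cdkn1a, Rbl2, Ccng2 and Gadd45a) and 1 fell (Rbl1), beside 15.5% and 18.5% of all genes. By the union measure 4 rose (Cdkn1a, Rb1, Ccng2 and Gadd45a) and 2 fell (Cdkn2c and Rbl1), beside 14.6% and 18.9%. Through the introns 3 rose (Cdkn1a, Ccng2 and Gadd45a) and the same 2 fell, beside 15.6% and 18.3%.

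Ordered by level over the union of exons, growth ran from Cdkn1a through Ccng1, Cdkn2c, Cdkn1b, Gadd45a, Rbl1, Ccng2 and Rbl2 to Rb1, and the neighbours Cdkn1b and Gadd45a, and Rbl1 and Ccng2, did not differ beyond their intervals. In all 3 later libraries Cdkn1a, Gadd45a, Ccng1, Cdkn1b and Ccng2 came in that order and Rbl1 came last. Between them the neighbours Rb1 and Cdkn2c at 60 h, Rb1 and Rbl2 at 120 h, Rbl2 and Cdkn2c at 168 h, and Cdkn2c and Rb1 at 168 h did not differ beyond their intervals, while those of Rbl2 and Rb1 at 168 h were apart.

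Among 7389 genes with at least 10 FPKM in their highest library and a value in all 4, those whose log2 ratios to growth lay nearest were sought for each gene called at 60 h by the sum. For Cdkn1a they were Txlnb, Hephl1 and Trp53inp2, at distances of 0.14, 0.19 and 0.24 over the 3 ratios. Trp53inp2, for example, stood at 10.8, 82.0, 90.9 and 79.4 FPKM. For Gadd45a they were the muscle genes Actn3 (0.18), Unc45b (0.23) and Myh6 (0.24), which encode an actinin of fast fibres, a myosin chaperone and a myosin heavy chain. Actn3 stood at 13.5, 229.4, 302.9 and 310.2 FPKM. For Ccng2 they were Amacr (0.05), St3gal5 (0.08) and Fgf11 (0.13), and for Rbl1, by the sum that its broken assembly inflates, Hs2st1 (0.15), Mrps18b (0.16) and Usp12 (0.16). The likeness is over 4 libraries only and is a description.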

How the data were processed

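Each library's assembled transcripts were deposited by the authors with RPKM and confidence limits, in a column of mixed attributes (a field of other values), per the file headers. The deposited RPKM count fragments and are called FPKM here. The submitters' processing notes list TopHat 1.0.13 and Cufflinks 0.8.0 without saying what each did. Transcripts were named by matching runs of intron and exon lengths to the GENCODE M21 annotation, without coordinates: 122580 of 137519 introns by runs and 5387 by their own length between named neighbours. An unspliced piece joined a gene if 50% or more of its length fell in the exons assembled for it. Limits of summed transcripts were added in quadrature. No test was made, since each time point has 1 library. The 10 genes, the 8 lists and all rules were chosen with earlier results of these data known. The text names the 10 genes, from each list the 3 that differed most at 60 h against growth (at 5 FPKM or more), and the 3 nearest genes of each gene called there. Alternatives were a pseudocount of 0.1, no minimum or 5 FPKM, 2 scalings, 4 other gene values or namings and a 4-fold rule. Assembled transcripts took 86.9% to 89.7% of each library's fragments. The rules were tested on simulated data. Python 3.11.15 and numpy 2.4.6 were used. One further marker list is not reported here.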

Additional observations from a re-analysis of the deposited data

How the results depend on the processing

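No paired analysis was possible because there was 1 library at each time point, and no library could be left out. Of 360 log2 ratios of the 9 genes under 10 alternatives, 336 kept their side of the rule, and no called ratio changed sign. With no minimum, a minimum of 5 FPKM or naming by runs alone, all 36 ratios kept their main value, so these alternatives test little. The 4-fold rule can only remove calls, and it removed 6. The count of genes that fell at 60 h against growth went from 1 to 0 under median-ratio rescaling, multi-exon transcripts alone, the introns, the union of exons and the 4-fold rule. The count that rose at 120 h against 60 h went from 1 to 2 with a pseudocount of 0.1 FPKM and to 0 through the introns, over the union and by the 4-fold rule. With a pseudocount of 0.1, 1 gene (Rbl1) fell at 168 h against 120 h. At 168 h against growth, 2 rose by the 4-fold rule, and the count that fell went from 1 to 0 under median-ratio rescaling and the 4-fold rule and to 2 through the introns and over the union. Cdkn1b passed the rule there only under median-ratio rescaling (log2 ratio 1.08). In the lists, the p27 turnover gene that rose at 60 h was lost through the introns and over the union (0), the 3 p53 genes that fell at 60 h were lost under median-ratio rescaling (0) and the 5 that fell at 168 h became 3 through the introns and over the union, and the FoxO gene that fell at 60 h was lost under median-ratio rescaling, through the introns and over the union (0). Median-ratio rescaling divides the libraries by 1.09 (growth), 0.929, 1.07 and 0.954, which shifts all ratios of 60 h and of 168 h to growth upward. The causes were not tested. Keeping only transcripts with most introns removed no spliced chain of Cdkn1a or Cdkn2c, so it tests nothing about their first exon shares. Depth limits Rbl1 at 168 h (76 fragments) and 120 h (114) most, then Rb1 in growth (155).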
